A study of Homo sapiens with 12 samples.

Results

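The miR-99b, let-7e and miR-125a cluster was described in vesicles shed by 6 cancer cell lines: SW1116, MDST8, Car-1, Hutu80, HT55 and RCM-1. Such extracellular vesicles are small membrane particles released from cells, and part of their cargo is microRNA (miRNA). The 4 members, hsa-miR-99b-5p, hsa-miR-99b-3p, hsa-let-7e-5p and hsa-miR-125a-5p (written without the species prefix from here on), were taken by name from a count table of 1636 mature miRNAs, and all 4 were found and passed the filter on low counts that left 318 miRNAs to test. Each line had 2 libraries (replicates 1 and 2), 12 in all. The labels call every line a colorectal cancer line, although Hutu80 is known as a line from the duodenum. All lines were grown the same way, in DMEM/F12 supplemented with fetal bovine serum and with no treatment named. Vesicles were separated by ultrafiltration and size-exclusion chromatography, and small RNA libraries were made with IsoSeek, a low-input protocol with unique molecular identifiers. The study set lines of consensus molecular subtypes 2 and 4 side by side. No label used here ties a line to a subtype, so lines were compared with each other. Each line stands for itself only, and whether its libraries were separate cultures is not given in the labels; p-values therefore reflect library-to-library spread, which may be technical.

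A miRNA is cut from a hairpin in its precursor, whose 5′ and 3′ arms each can give a mature strand. The mature strand guides a silencing complex to messenger RNAs, mostly by pairing through its seed (bases 2 to 8). The cluster holds 3 hairpins in one stretch of chromosome 19 and mirrors related clusters on chromosomes 11 (miR-100, let-7a-2, miR-125b-1) and 21 (miR-99a, let-7c, miR-125b-2). Members of the miR-99 family are known to lower mTOR and IGF1R, let-7 lowers RAS, HMGA2 and LIN28, and miR-125, the vertebrate relative of lin-4 of the worm Caenorhabditis elegans, lowers ERBB2 and LIN28. let-7 itself was first found as a timer of larval development in that worm.

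The mature sequences of the members and of their nearest relatives show which miRNAs share targets through the seed, given in capitals (RefSeq, GRCh38.p14):
miR-99b-5p: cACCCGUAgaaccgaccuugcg
miR-100-5p: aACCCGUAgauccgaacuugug
miR-99a-5p: aACCCGUAgauccgaucuugug
miR-99b-3p: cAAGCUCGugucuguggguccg
let-7e-5p: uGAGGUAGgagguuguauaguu
let-7a-5p: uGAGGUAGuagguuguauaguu
let-7c-5p: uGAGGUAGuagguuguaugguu
miR-125a-5p: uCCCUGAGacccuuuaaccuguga
miR-125b-5p: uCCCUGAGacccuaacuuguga
The 4 members carry 4 different seeds. Counted from the 5′ end, miR-99b-5p differs from miR-99a-5p at 4 positions (C1A, A11U, C16U and C21U, the base of miR-99b-5p first), all outside the seed. let-7e-5p differs from let-7a-5p at a single position, G9U. miR-125a-5p has 24 bases and shares its first 13 with miR-125b-5p, which has 22.

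The hairpin of miR-99b is shown with both mature arms in capitals, since the balance of these arms is one of the measurements. The 5p arm covers bases 7 to 28 and the 3p arm bases 45 to 66 of 70.
mir-99b hairpin, chr19:51692612-51692681, plus strand: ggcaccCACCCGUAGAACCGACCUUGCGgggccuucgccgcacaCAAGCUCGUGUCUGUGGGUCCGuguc
The hairpin of let-7e follows 104 bases downstream (chr19:51692786-51692864), and that of miR-125a 389 bases further (chr19:51693254-51693339), so the 3 hairpins span 728 bases. In GENCODE 29 all 3 lie in an intron of SPACA6, a gene named for a sperm protein, on its own strand. They also lie opposite an exon of the antisense non-coding gene SPACA6P-AS.

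Library totals ran from 71831 counts in Hutu80 replicate 1 to 622800 in SW1116 replicate 1, so 1 count was worth between 13.9 and 1.61 CPM (counts scaled to a common total). Levels are given as CPM after scaling by TMM (trimmed mean) factors, unless called unscaled. Each difference is a log2 value ± its standard error (SE), from 1 edgeR quasi-likelihood fit of all 12 libraries, and a call means a Benjamini-Hochberg adjusted p below 0.05 over all 318 miRNAs. Together the 4 members took 0.108% to 0.142% of the counts in the RCM-1 libraries and 0.193% to 0.272% in HT55, against 0.696% to 1.15% in the 8 libraries of the other 4 lines. Markers of gut epithelium (miR-200c-3p, miR-192-5p, miR-194-5p and miR-375-3p) were above 0 in every library. They summed to 4044 to 28505 CPM in MDST8, Hutu80 and Car-1 and to 87282 to 131461 CPM in SW1116, HT55 and RCM-1, mostly miR-200c-3p. In SW1116 3 of the 4 were called higher against the mean of the other lines (17.6% of all miRNAs). miR-375-3p was not called there (0.10 ± 0.23, edgeR adjusted p = 0.809). It averaged 1333 CPM in SW1116, against 5913 in HT55 and 7049 in RCM-1. A list of 6 blood and serum miRNAs summed to 1671 to 5868 CPM, highest in HT55, with at most 1 of the 6 at 0 in a library and the defining miR-451a never at 0. A list of 4 stromal and muscle miRNAs summed to 243 to 814 CPM, with at most 2 at 0. The part of these marker differences in the members' levels was not tested.

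miR-99b-5p, the main arm of its hairpin, was abundant in 4 lines and scarce in HT55 and RCM-1. It was at 2931 and 4533 CPM in SW1116, 3434 and 2681 in Car-1, 2322 and 2837 in Hutu80 and 1886 and 3149 in MDST8. HT55 had 718 and 806 CPM and RCM-1 436 and 292. Among the first 4 lines each pair overlapped except SW1116 and Hutu80, where both SW1116 libraries were higher. Those of RCM-1 lay below all other libraries. Fewer vesicles that hold a miRNA and less of it in each vesicle cannot be told apart in such bulk values.

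let-7e-5p, the most abundant member on average, was highest in 2 lines. It was at 5154 and 7672 CPM in SW1116 and 6132 and 5809.6 in MDST8. Car-1 had 1547 and 2691 CPM, Hutu80 1832 and 2293, HT55 1203 and 1279, and RCM-1 905 and 716. SW1116 and MDST8 overlapped each other and lay above every library of the other lines, and RCM-1 lay below every other library.

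miR-125a-5p was at 1395 and 3180.0 CPM in SW1116, 1218 and 1762 in MDST8 and 1373 and 1525 in Car-1. Hutu80 had 643 and 619 CPM, HT55 320.2 and 445, and RCM-1 208 and 171. Here Hutu80 lay below the 3 highest lines, which overlapped, and above HT55 and RCM-1.

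miR-99b-3p, the arm usually made in smaller amounts, had another order. It was at 1210.2 and 1565 CPM in Hutu80 and 944 and 448 in Car-1. MDST8 had 294 and 354 CPM, SW1116 165 and 337, HT55 77.9 and 78.8, and RCM-1 45.6 and 11.8, the last from 7 and 4 counts. Both Hutu80 libraries lay above every other library and both RCM-1 libraries below every other one.

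**Figure D1:**
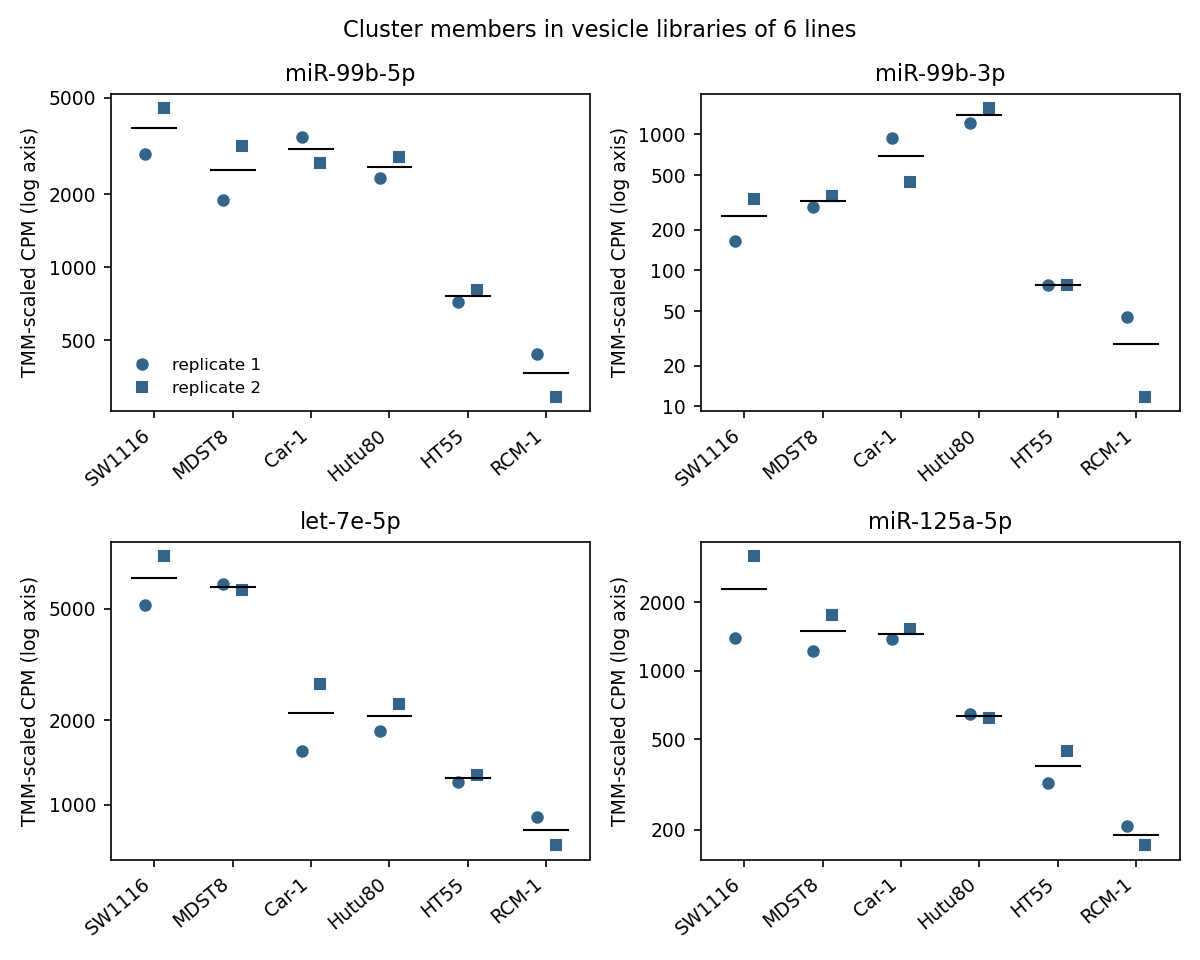
TMM-scaled CPM (log axis) of the 4 members in each library, by line; circles are replicate 1, squares replicate 2, and the bar is the mean of both. RCM-1 is lowest in all 4 panels, and Hutu80 is highest for miR-99b-3p only.

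The first comparison asked whether the members differed among the lines, and all 4 did. The adjusted p was 1.23e-08 for let-7e-5p, 1.4e-08 for miR-99b-3p, 4.74e-08 for miR-99b-5p and 1.11e-07 for miR-125a-5p. Of all 318 miRNAs 68.2% passed, so a call across lines does not set the members apart. The mean of the highest line was 48.4 times that of the lowest for miR-99b-3p, 12.1 times for miR-125a-5p, 10.3 times for miR-99b-5p and 7.91 times for let-7e-5p. The SD of the 6 line means was 1.95 on the log2 scale for miR-99b-3p, larger than in 90.9% of tested miRNAs, and 1.19 for let-7e-5p, larger than in 67.3%.

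Each line was then compared with the mean of the other 5. In RCM-1 all 4 members were lower, by most in miR-99b-3p. miR-99b-3p fell by 3.87 ± 0.54 (adjusted p = 3.97e-06), miR-99b-5p fell by 2.64 ± 0.31 (3.9e-07), miR-125a-5p fell by 2.46 ± 0.36 (5.73e-06) and let-7e-5p fell by 1.85 ± 0.28 (9.95e-06), where 14.8% of all miRNAs were called lower. In HT55 all 4 were lower too, where 10.4% of all miRNAs were called lower: miR-99b-3p fell by 1.86 ± 0.46 (0.00356), miR-99b-5p by 1.34 ± 0.28 (0.000852), miR-125a-5p by 1.22 ± 0.32 (0.00572) and let-7e-5p by 1.10 ± 0.26 (0.0025).

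In the other lines the members divided. SW1116 had 3 members higher, where 17.6% of all miRNAs were: miR-125a-5p by 1.86 ± 0.25 (adjusted p = 2.35e-06), let-7e-5p by 1.74 ± 0.21 (4.09e-07) and miR-99b-5p by 1.41 ± 0.23 (2.81e-05). miR-99b-3p differed there by 0.13 ± 0.35 (0.836). MDST8 also had 3 higher (22.0% of all miRNAs), let-7e-5p by 1.62 ± 0.21 (7.72e-07), miR-125a-5p by 1.12 ± 0.26 (0.0011) and miR-99b-5p by 0.73 ± 0.24 (0.0147), with miR-99b-3p at 0.58 ± 0.35 (0.181). Car-1 had both arms of miR-99b and miR-125a-5p higher (21.1% of all miRNAs). There miR-99b-3p was 1.91 ± 0.32 higher (4.32e-05), miR-125a-5p 1.07 ± 0.26 (0.00258) and miR-99b-5p 1.07 ± 0.23 (0.000871), while let-7e-5p was at -0.18 ± 0.24 (0.624). Hutu80 had both arms of miR-99b higher and no other member (23.0% of all miRNAs): miR-99b-3p by 3.10 ± 0.31 (1.16e-08) and miR-99b-5p by 0.77 ± 0.24 (0.0133), against -0.22 ± 0.25 for let-7e-5p (0.536) and -0.37 ± 0.31 for miR-125a-5p (0.381). Over the 24 comparisons 19 were called, 11 higher and 8 lower. The share of all miRNAs called in the direction that no member took was 21.1% (higher) in RCM-1 and 13.8% (higher) in HT55, and, for lower calls, 16.7% in SW1116, 22.3% in MDST8, 13.5% in Car-1 and 16.7% in Hutu80.

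Some of these calls were lost in another setting. Leaving out a library of the line itself leaves that line 1 library, whose spread is then assumed to equal that of the other lines, so such a loss need not mean a smaller difference. In Hutu80 the difference of miR-99b-5p was 0.63 without replicate 1 (adjusted p = 0.16) and 0.37 without replicate 2 (0.509). It was 0.50 without Car-1 replicate 1 (0.097), 0.49 without Car-1 replicate 2 (0.119) and 0.47 without HT55 replicate 2 (0.155). With no filter on low counts it was 0.29 (0.812), and without the 10 most abundant miRNAs 0.53 (0.086). Without MDST8 replicate 2 the MDST8 difference was 0.33 for miR-99b-5p (0.528) and 0.85 for miR-125a-5p (0.061). The Car-1 difference of miR-125a-5p was 0.79 without Car-1 replicate 2 (0.0882), and the HT55 difference of miR-125a-5p was -0.99 without HT55 replicate 1 (0.134). The HT55 difference of let-7e-5p was -1.04 without HT55 replicate 1 (0.0538), against -1.10 with both, and its call also ended without HT55 replicate 2 (0.0546). The miR-99b-5p call in MDST8 also ended when limma-trend was fitted to the authors' log2 table (0.67, adjusted p = 0.0509), and the miR-99b-3p call in HT55 ended in limma-voom (-1.76, adjusted p = 0.0589).

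The scaling moved the order at the top. With library totals as the only scaling the median difference of all tested miRNAs was -0.88 in SW1116, 0.64 in Car-1 and 0.43 in Hutu80, against -0.22, 0.02 and 0.09 with TMM. The same 19 comparisons were counted as calls, but the difference of miR-99b-5p was then 0.72 in SW1116 and 1.69 in Car-1, and that of miR-125a-5p 1.15 in SW1116 and 1.70 in Car-1. Unscaled, miR-99b-5p averaged 4407 ± 709 CPM in Car-1 (SD, n = 2) and 2513 ± 564 in SW1116, and miR-125a-5p 2092 ± 183 in Car-1 and 1525 ± 733 in SW1116, so Car-1 rather than SW1116 was highest for both. let-7e-5p was then highest in MDST8, at 5876 ± 245 CPM against 4324 ± 855 in SW1116. RCM-1 was lowest and HT55 second lowest for every member under both scalings, and Hutu80 highest for miR-99b-3p.

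Pairs of lines show which neighbours in each order differ. Of 60 comparisons of a member between a pair of lines, 40 were called, against 32.9% of all such comparisons over the 318 miRNAs. The 60 comparisons reuse the same 12 libraries. Members also had a higher mean CPM than 66.0% (miR-99b-3p) to 86.8% (let-7e-5p) of tested miRNAs, so the shares are not like for like. For miR-99b-5p the 4 high lines did not differ from their neighbours (adjusted p = 0.498 to 0.979), then came a step of 1.72 ± 0.34 between MDST8 and HT55 (0.000187) and one of 1.09 ± 0.35 between HT55 and RCM-1 (0.0414). For let-7e-5p the step lay between MDST8 and Car-1 (1.496 ± 0.31, adjusted p = 0.000474), and the other neighbours were not told apart (0.0813 to 0.981). For miR-125a-5p it lay between Car-1 and Hutu80 (1.198 ± 0.38, adjusted p = 0.0279), with 0.0914 to 0.928 for the rest. For miR-99b-3p the called step was between SW1116 and HT55 (1.66 ± 0.52, adjusted p = 0.0278), and Car-1 against MDST8 just missed (1.11 ± 0.45, adjusted p = 0.05001).

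The members varied together across the lines, most closely miR-99b-5p with miR-125a-5p and least miR-99b-3p with let-7e-5p. Over the 6 line means of log2 CPM, Pearson's r of this pair was 0.94 (Spearman's rho 0.83), and only 1 of the 317 other tested miRNAs had a higher r with miR-99b-5p. let-7e-5p had an r of 0.90 with miR-125a-5p (rho 0.94) and of 0.82 with miR-99b-5p (rho 0.77). miR-99b-3p followed its own 5p arm at 0.85 (rho 0.60), miR-125a-5p at 0.64 (rho 0.43) and let-7e-5p at 0.48 (rho 0.49). Among the 317 partners of miR-99b-3p these ranked 9, 54 and 84 by r. The median over these 6 pairs was 0.83, and that over all 50403 pairs of tested miRNAs was -0.01. The values share libraries and scaling, and 6 lines are few, so they are a description.

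The r of miR-99b-5p with each other member was lower without the 2 low lines. Without HT55 and RCM-1, the lines farthest from the median of miR-99b-5p, its r was 0.66 with miR-125a-5p, 0.24 with let-7e-5p and -0.48 with miR-99b-3p. Leaving out the farthest lines narrows the range, which by itself tends to lower r. How much of the co-variation rested on these 2 lines can therefore not be told. The r of let-7e-5p with miR-125a-5p was 0.91 without MDST8 and SW1116, the lines farthest for let-7e-5p. Without Hutu80 and RCM-1, the lines farthest for miR-99b-3p, its r was 0.76 with miR-125a-5p and 0.36 with let-7e-5p. Over all lines these were 0.64 and 0.48. The scatter of line means shows HT55 and RCM-1 at the low end of each relation and the other 4 lines spread along the vertical axis.

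**Figure D2:**
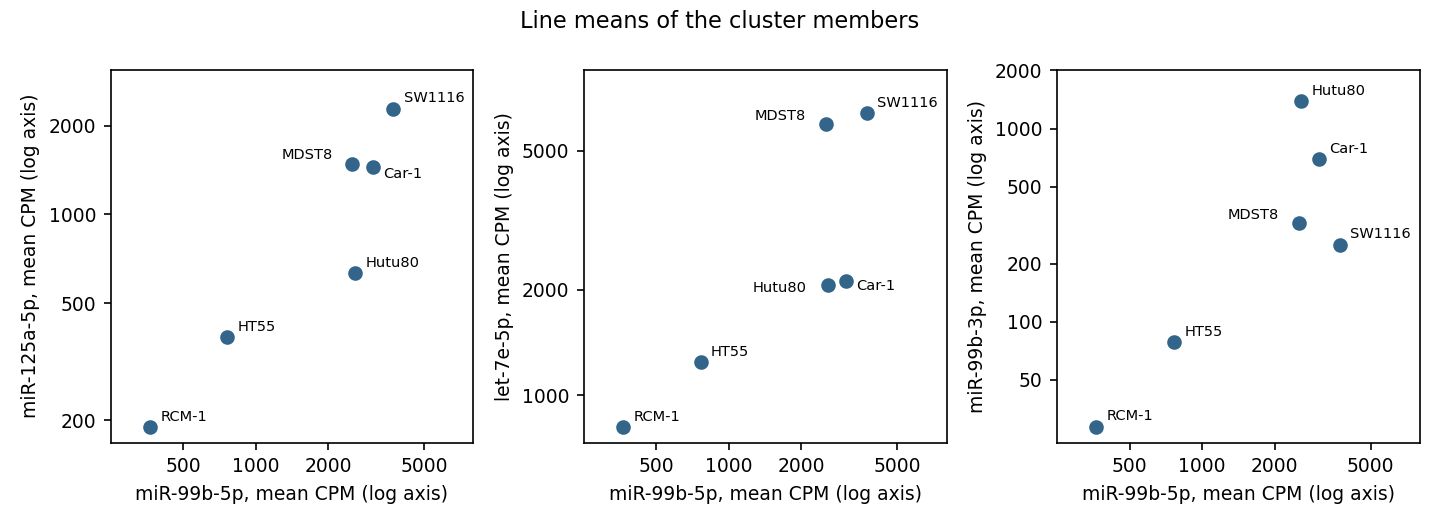
Mean TMM-scaled CPM of each line (log axes, 1 point a line, 2 libraries each) for miR-99b-5p on the horizontal axis and miR-125a-5p, let-7e-5p or miR-99b-3p on the vertical axis. Among the 4 lines with high miR-99b-5p, Hutu80 is lowest for miR-125a-5p and highest for miR-99b-3p.

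The 2 arms of miR-99b come from the same hairpin, so their ratio within a library does not depend on depth or scaling. The 3p arm took a far larger part of miR-99b counts in Hutu80 than in the other lines. In Hutu80 it made up 34.3% of them in replicate 1, 111 counts beside 213 of the 5p arm (95% exact binomial interval 29.1 to 39.7) and 35.6% in replicate 2, 187 beside 339 (31.5 to 39.8). In Car-1 it made up 21.6% and 14.3%, in MDST8 13.5% and 10.1%, in HT55 9.78% and 8.90%, in RCM-1 9.46% and 3.88%, and in SW1116 5.32% and 6.93%. The intervals cover counting error only. Neither Hutu80 interval met that of another line, while those of HT55 (4.57 to 17.8 and 5.27 to 13.9) and RCM-1 (3.89 to 18.5 and 1.07 to 9.65) were wide, since they rested on 9, 17, 7 and 4 counts of the 3p arm.

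Put as a ratio, miR-99b-5p exceeded miR-99b-3p 1.86 times in Hutu80, 4.65 times in Car-1, 7.52 times in MDST8, 9.36 times in HT55, 14.1 times in RCM-1 and 15.4 times in SW1116 (geometric means of 2 libraries, 0.5 added to each count). The ratio differed among lines in an exact permutation test over all ways to pair the 12 libraries (one-sided in F, p = 0.00741, adjusted p = 0.0148 over 8 ratios). In SW1116 replicate 1, the deepest library, 74 counts of the 3p arm stood beside 1317 of the 5p arm.

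**Figure D3:**
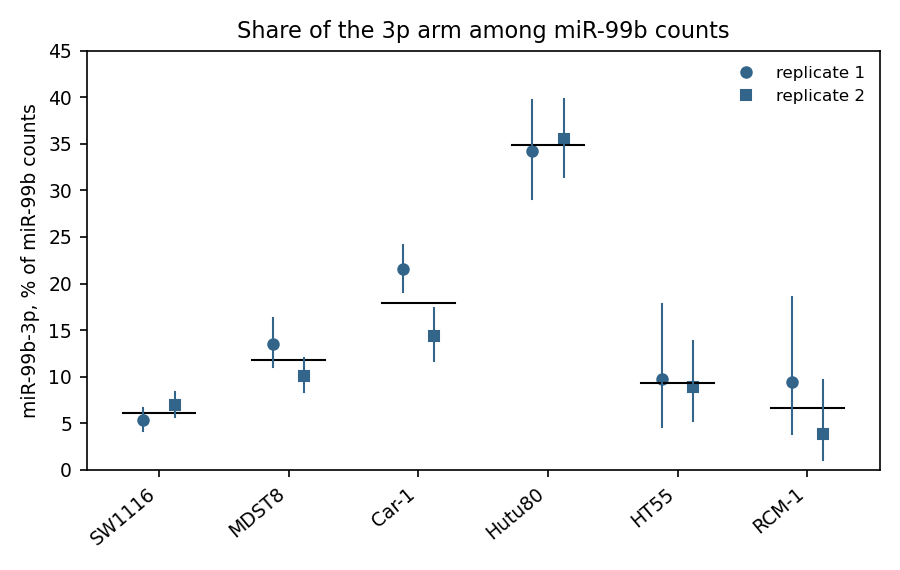
Percentage of miR-99b counts (5p plus 3p) that were miR-99b-3p, per library; vertical lines are 95% exact binomial intervals and horizontal bars the mean of a line. Both Hutu80 libraries lie near 35%, and every other library lies between 3.88% and 21.6%.

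To see how far this was general to Hutu80, log2 5p/3p ratios were fitted with limma, a choice made after the ratio of miR-99b had been seen. The ratio was taken for the 58 hairpins whose tested arms share a name apart from 5p and 3p. Hairpins whose 3p arm carries a locus number were left out, among them those of miR-125b-1-3p and miR-125b-2-3p, relatives of the cluster. The ratio of miR-99b fell by 2.33 ± 0.41 in Hutu80 against the mean of the other lines (adjusted p = 0.00456 over 58 hairpins), where 5.17% of hairpins were called lower. The median of all hairpins in Hutu80 was -0.40, with 38 of 58 hairpins below 0. The other hairpins called lower were miR-30d and miR-181a, and 3 had a lower value than miR-99b. miR-99b was at 1.33 ± 0.41 in SW1116 (0.0828), 1.18 ± 0.41 in RCM-1 (0.122), 0.47 ± 0.41 in HT55 (0.765), 0.09 ± 0.41 in MDST8 (0.939) and -0.74 ± 0.41 in Car-1 (0.35), none called. Across lines the arm ratio of miR-99b passed (adjusted p = 0.0226), as did 24.1% of hairpins, and by the SD of its line means (1.14) it ranked 17 of 58. The Hutu80 call ended without Hutu80 replicate 1 (adjusted p = 0.0523, difference -2.37) or 2 (0.0807, -2.29), fits that leave the line a single library. The call across lines ended without either of them (0.0795 and 0.0834) or without SW1116 replicate 1 (0.0538).

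**Figure D4:**
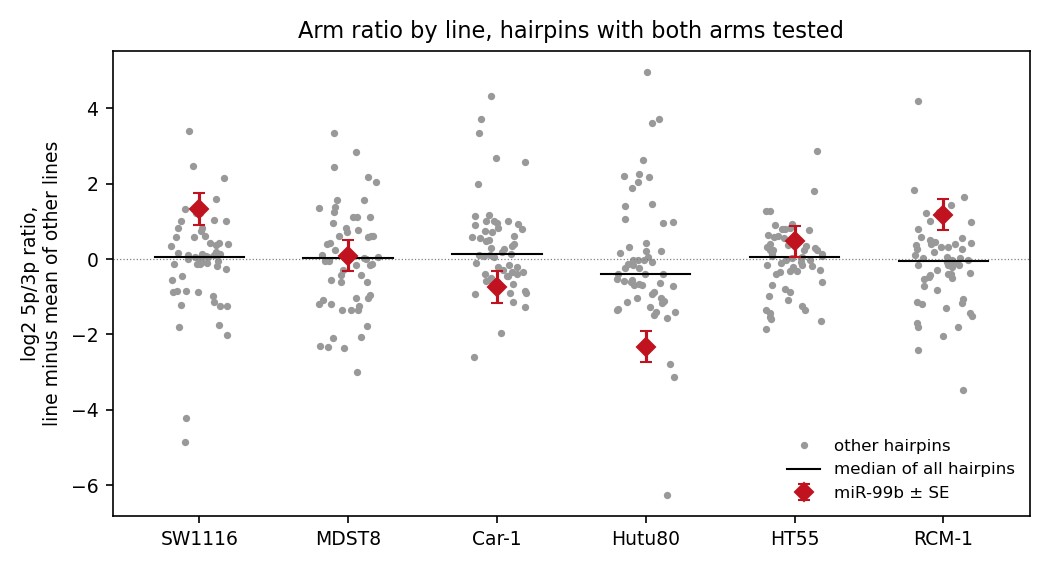
Log2 5p/3p ratio of each of 58 hairpins in a line minus the mean of the other 5 lines; grey points are other hairpins, the bar is the median of all, and the red diamond is miR-99b with its SE. miR-99b lies at -2.33 in Hutu80, where the median is -0.40.

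The other arms of the cluster, let-7e-3p and miR-125a-3p, were too rare to test. let-7e-3p had 10 and 8 counts in MDST8, 2 and 1 in SW1116, 1 and 1 in Car-1 and 0 in the libraries of Hutu80, HT55 and RCM-1. Over both libraries of a line, a count of 0 allows up to 17.4 CPM unscaled in Hutu80, 8.68 in HT55 and 5.51 in RCM-1 (3 counts of the summed total). The 18 counts of MDST8 amounted to 27.8 CPM unscaled (95% exact binomial interval 16.5 to 44.0). Both the limit of 17.4 for Hutu80 and the upper end of its own exact interval, 21.4, lay inside the interval of MDST8. miR-125a-3p had 0 to 11 counts a library, with the 11 in SW1116 replicate 2. In Hutu80, where miR-99b-3p reached 111 and 187 counts, the 2 rare arms together had 0 and 3.

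Of 3 ratios between members of different hairpins, that of miR-99b-5p to let-7e-5p differed among lines. miR-99b-5p exceeded let-7e-5p in Car-1 (1.49 times) and Hutu80 (1.25 times), whereas it was at 0.61 of let-7e-5p in HT55, 0.58 in SW1116, 0.44 in RCM-1 and 0.41 in MDST8 (exact permutation adjusted p = 0.0237). This call ended without either Hutu80 or HT55 library, SW1116 replicate 2 or RCM-1 replicate 2 (adjusted p = 0.0503 to 0.0684). The 2 Car-1 libraries, at 1.00 and 2.22, differed more than any other pair. miR-99b-5p exceeded miR-125a-5p 4.04 times in Hutu80 and 1.66 to 2.10 times in the other 5 lines, which did not pass (exact permutation adjusted p = 0.0657). let-7e-5p exceeded miR-125a-5p 1.41 times in Car-1 and 2.98 to 4.23 times in the others (exact permutation adjusted p = 0.0533, also not passed). Both of these missed the threshold narrowly. With values first centred by replicate number, the permutation adjusted p was 0.0478 and 0.0433. The pairings were still drawn freely across replicate numbers, so this is no exact test of a blocked design and no conclusion was drawn from it.

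The cluster was then set beside its relatives. Of the 11 listed arms of the clusters on chromosomes 11 and 21, 10 were in the count table and 7 were tested. All 7 differed across lines, as did 68.2% of all miRNAs. The mature sequence of let-7a-5p also comes from hairpins on chromosomes 9 and 22. Its level is therefore not that of the chromosome 11 cluster alone. In SW1116, 1 of the 7 was higher and 5 lower (17.6% and 16.7% of all miRNAs), with a median difference of -1.40 against -0.22 for all miRNAs, whereas 3 of the 4 members of the chromosome 19 cluster were higher there. miR-100-5p fell by 1.71 ± 0.24 in SW1116 (adjusted p = 5.69e-06), miR-125b-5p by 1.40 ± 0.29 (0.000586) and miR-99a-5p by 2.09 ± 0.45 (0.00179), while let-7a-5p was 1.08 ± 0.22 higher (0.0005). With library totals 5 relatives were called lower in SW1116, at a median of -2.07, and let-7a-5p was no longer called (0.41, adjusted p = 0.107). In MDST8, 5 of 7 were higher and none was called lower (22.0% and 22.3% of all miRNAs). In RCM-1 3 were lower (14.8% of all miRNAs) and in HT55 4 (10.4%), with none called higher. In Hutu80 3 were higher and 1 lower (23.0% and 16.7% of all miRNAs), as in Car-1 (21.1% and 13.5%), although library totals gave 4 higher and none lower in Car-1. Over the 6 lines, r of the 7 with miR-99b-5p ran from -0.19 for let-7a-5p to 0.69 for miR-125b-2-3p. It was 0.49 for miR-100-5p and for miR-125b-5p, 0.31 for miR-99a-5p, 0.27 for miR-125b-1-3p and 0.14 for let-7c-5p.

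miR-99b-3p was at least 98.9% of the counts of its seed family in every library. miR-99b-5p made up 37.7% and 56.0% of the counts with the ACCCGUA seed (miR-99b-5p, miR-99a-5p and miR-100-5p) in SW1116. It made up 13.3% and 12.9% in Hutu80, 11.8% and 10.4% in HT55, 10.7% and 10.6% in Car-1, 8.77% and 6.85% in RCM-1, and 2.95% and 4.12% in MDST8. MDST8, with a mean of 2517 ± 893 CPM of miR-99b-5p beside 2580 ± 364 CPM in Hutu80 (SD, n = 2 each), had the smallest part, beside 18312 and 21884 counts of miR-100-5p. The ratio of miR-99b-5p to miR-100-5p differed among lines (0.99 in SW1116, 0.04 in MDST8, exact permutation adjusted p = 0.00154), and so did that to miR-99a-5p (7.95 in SW1116, 0.34 in RCM-1, exact permutation adjusted p = 0.0123).

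miR-125a-5p was the majority of CCCUGAG seed counts in SW1116 only, with 69.4% and 81.7%. It had 44.7% and 24.2% in Hutu80, 30.3% and 34.8% in HT55, 27.1% and 29.3% in Car-1, 23.0% and 23.8% in RCM-1 and 18.6% and 18.3% in MDST8. The ratio to miR-125b-5p was 3.17 in SW1116 and 0.23 in MDST8 and differed among lines (exact permutation adjusted p = 0.0237). The replicates of Hutu80, from 132 and 306 seed counts, had intervals that did not meet (36.0 to 53.6 and 19.5 to 29.4).

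let-7e-5p was a small part of the let-7 seed family in all lines. It made up 3.47% and 3.75% of GAGGUAG seed counts in MDST8, 1.67% and 2.09% in SW1116, 1.54% and 1.71% in Hutu80, 1.56% and 1.59% in Car-1, 0.470% and 0.786% in HT55 and 0.399% and 0.377% in RCM-1. Of the 8 other let-7 members tested, 5 differed across lines, a share near the 68.2% of all miRNAs. In SW1116 3 of the 8 were higher and none was called lower (1 higher and 1 lower with library totals), where 17.6% of all miRNAs were higher and 16.7% lower. In RCM-1 1 was higher and 1 lower (21.1% and 14.8% of all miRNAs), where let-7e-5p was lower. In MDST8 1 was higher and 2 lower (22.0% and 22.3%), and in HT55 1 higher and 1 lower (13.8% and 10.4%). let-7i-5p was called in the direction of let-7e-5p in MDST8 (2.02 ± 0.18), HT55 (-0.71 ± 0.22) and RCM-1 (-0.95 ± 0.22). In the same lines let-7b-5p was called the opposite way (MDST8 -1.48 ± 0.27, HT55 0.89 ± 0.22, RCM-1 0.83 ± 0.22). let-7d-5p was also called lower in MDST8 (-0.97 ± 0.27). In SW1116 let-7i-5p was at -0.40 ± 0.21 and not called, while let-7b-5p was called higher (2.05 ± 0.21), as let-7e-5p was. Over the 6 lines, r of let-7e-5p with the 8 ran from -0.38 for let-7d-5p to 0.78 for let-7f-5p. It was 0.67 for let-7i-5p. The ratio to let-7c-5p was 1.41 in MDST8, 1.31 in SW1116, 1.07 in Car-1, 0.51 in HT55, 0.29 in Hutu80 and 0.20 in RCM-1 (exact permutation adjusted p = 0.00154). Counts of let-7e-5p amounted to 10.9% and 10.3% of those of let-7a-5p in MDST8 and to 1.14% and 1.01% in RCM-1. Since the 2 miRNAs differ at 1 base and the handling of mismatches is not given in the sources used here, the part of misassigned let-7a-5p reads in the lowest values was not tested.

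**Figure D5:**
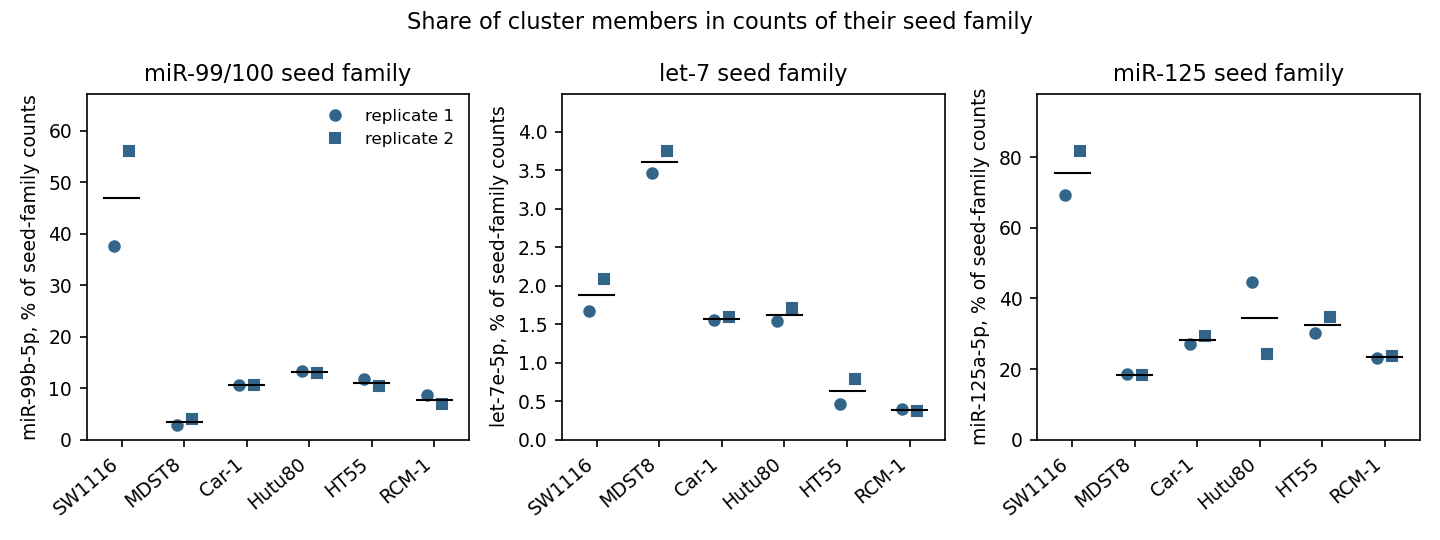
Percentage of the counts of a seed family that the cluster member took, per library and line (circles replicate 1, squares replicate 2, bars the mean), for miR-99b-5p, let-7e-5p and miR-125a-5p. SW1116 stands above the other lines for miR-99b-5p and miR-125a-5p, and MDST8 for let-7e-5p.

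The miRNAs outside the cluster with the most similar pattern were found among 197 with a mean of at least 100 CPM, by r over the 6 line means. For miR-99b-5p they were miR-589-5p (0.89), miR-9-5p (0.86) and miR-149-5p (0.81). For miR-125a-5p they were miR-149-5p (0.90), miR-589-5p (0.87) and miR-27a-3p (0.84), so 2 names were shared. For let-7e-5p they were miR-9-5p (0.90), miR-221-3p (0.86) and miR-222-3p (0.85). miR-99b-3p had others: miR-1275 (0.94), miR-30a-3p (0.93) and miR-125b-2-3p (0.92), the last being the 3p arm of a hairpin in the related cluster on chromosome 21. miR-125b-2-3p was 2.65 ± 0.40 higher in Hutu80 (adjusted p = 8.16e-06), beside -0.13 ± 0.27 for miR-125b-5p (0.754), which hairpins on chromosomes 11 and 21 both give. From the chromosome 21 cluster, miR-99a-5p (2.62 ± 0.32, edgeR adjusted p = 5.61e-06) and let-7c-5p (1.14 ± 0.23, 0.000268) were also called higher in Hutu80. The partners named here were picked as the highest r of 197 over 6 lines, so these r are a description. Of all pairs of tested miRNAs, 2.25% had an r over 0.9. With a line left out, the lowest r ran from 0.72 (miR-589-5p with miR-125a-5p) to 0.92 (miR-30a-3p with miR-99b-3p).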

How the data were processed

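Small RNA counts of 12 vesicle libraries were used. Per the labels' protocols, libraries carried unique molecular identifiers. The submitters' processing notes name hg38. The aligner, the counter and any collapsing of identifiers were not stated there. The deposited table holds whole-number counts per mature miRNA, 413 of 1636 at 0 everywhere. A second deposited table holds log2 values, equal to log2(CPM + 1) of the counts in all 19632 cells, and served one alternative.

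Counts were filtered (filterByExpr by line, 318 kept, 99.7% of counts), scaled by TMM (factors 0.642 to 1.46) and tested with edgeR 4.0.16 (glmQLFit, robust, 1 mean per line, no block). An SE is the difference divided by the square root of F. Ratios used exact permutation, adjusted over 8 ratios. Line means of log2 CPM (prior count 2) gave correlations. Sequences came from RefSeq (GRCh38.p14), with names matched for 1470 of 1636 miRNAs, and gene positions from GENCODE 29. limma 3.58.1 and DESeq2 1.42.0 served alternatives. Procedures were tested on simulated data.

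Members and lists were chosen with earlier results of these data known. Named miRNAs are the members, their other arms, the relatives and let-7 lists, and the 3 most similar miRNAs per member; miR-30d and miR-181a were named after their values were seen, and the relatives were checked under other scalings after seeing the data. miR-100-3p was not in the count table and so was not analysed here.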

Additional observations from a re-analysis of the deposited data

How the results depend on the processing

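The call of each of the 4 members across lines was kept in all 21 alternative fits per member: RLE factors, library totals, no filter, a 10 CPM filter, limma-trend, limma-voom, DESeq2, the replicate block, dropping the top 10 miRNAs, and dropping each of 12 libraries in turn. The labels do not say whether replicate numbers pair libraries of different lines. The 15 correlations between lines of the difference replicate 1 minus 2 ran from -0.23 to 0.27, with a median of 0.06, and 5 exceeded 0.1. Whether some lines shared a batch was not tested. With the replicate block the count of line comparisons called stayed within 1.5 times of 19 and that of pairs within 1.5 times of 40. For ratios the block only centred values by replicate number before the same free pairings, so it gave no exact blocked test. The permutation adjusted p was then 0.0478 for miR-99b-5p to miR-125a-5p and 0.0433 for let-7e-5p to miR-125a-5p.

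Leaving out a library gave adjusted p-values of 0.00885 to 0.0684 for miR-99b-5p to let-7e-5p, 0.0453 to 0.177 for miR-99b-5p to miR-125a-5p and 0.0453 to 0.171 for let-7e-5p to miR-125a-5p. Differences that were not called turned sign in these cases, and the cause was not tested: miR-99b-3p in SW1116 with library totals (-0.56), in limma-trend (-0.58) and without SW1116 replicate 2 (-0.41; range without 1 library -0.41 to 0.60); let-7e-5p in Hutu80 with library totals (0.13) and limma-trend (0.14); let-7e-5p in Car-1 with library totals (0.46), limma-trend (0.41), no filter (0.00) and without Car-1 replicate 1 (0.20; range -0.83 to 0.20); miR-125a-5p in Hutu80 in limma-trend (0.03); and the arm ratio of miR-99b in MDST8 without MDST8 replicate 2 (-0.15) or RCM-1 replicate 1 (-0.04; range -0.15 to 0.33). Differences became calls for miR-99b-3p in MDST8 without Car-1 replicate 1 (adjusted p = 0.0217) or RCM-1 replicate 1 (0.0386), for let-7e-5p in Hutu80 without Car-1 replicate 1 (0.0468) and for the arm ratio in SW1116 without RCM-1 replicate 2 (0.0419). The median r of the 6 member pairs, 0.83, was 0.67 without RCM-1. It was 0.51 without the 2 lines farthest from the median, which were not the same for each pair. Those were HT55 and RCM-1, Hutu80 and RCM-1, or MDST8 and SW1116. Depth limits miR-99b-3p most, with 7 and 4 counts in RCM-1.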

Other observations

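The 2 libraries of a line also differed in the members. Across the 6 lines, the log2 difference between replicates 1 and 2 had an r of 0.93 for the 2 arms of miR-99b and of 0.74 for miR-99b-5p with miR-125a-5p, but of 0.10 for miR-99b-5p with let-7e-5p. In Car-1, miR-99b-5p had 848 and 538 counts and miR-99b-3p 233 and 90, while let-7e-5p had 382 and 540. In MDST8, miR-99b-5p had 596 and 1006 counts and let-7e-5p 1938 and 1856. The relative miR-99a-5p had 824 and 150 counts in Car-1, a wider gap than that of any member there. These correlations are over 6 pairs of libraries and carry no p; the median over all pairs of tested miRNAs was 0.02.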
